A study of Mus musculus with 2 samples.

Results

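Polycomb repressive complex 1 (PRC1) was examined through 10 of its genes, taken by name as the genes of the core and of the best known subunits: Rnf2, Ring1, Cbx7, Phc1, Pcgf2, Bmi1, Pcgf1, Pcgf6, Rybp and Kdm2b. They are 10 of the 20583 protein-coding genes analysed. The measured quantity was trimethylation of histone H3 at lysine 4 (H3K4me3), the histone mark found at the starts of active genes and of many genes held ready for later use. It was profiled by chromatin immunoprecipitation and sequencing (ChIP-seq) in E14TG2a.4, a subline of the mouse embryonic stem cell line E14, which carries the strain name 129/Ola and is male. Both biological replicates came from the same line and the same donor embryo (stage embryonic, age 3.5 days in the labels). The labels name no treatment or engineered allele. The single group of 2 samples thus describes 1 line and holds no condition to compare. The deposited data are lists of peaks, so the results below are levels and positions, and none of them rests on a test between conditions.

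PRC1 is an E3 ubiquitin ligase that attaches ubiquitin to histone H2A, and it keeps developmental genes silent in embryonic stem cells. Its catalytic core is RING1 or RNF2 (also called RING1B) bound to 1 of the PCGF proteins. Canonical complexes hold PCGF2 or BMI1 with a CBX protein, which reads the H3K27me3 mark laid down by PRC2, and a PHC protein, which polymerises and compacts chromatin. Variant complexes hold RYBP or YAF2 in place of CBX, and are led to chromatin by other subunits such as KDM2B, which binds unmethylated CpG. The genes are described here as promoters that carry the mark H3K4me3 themselves, not as sites where PRC1 binds.

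The sequence just upstream of the start is shown for 5 members whose promoters differ most in the results that follow. Phc1 had the widest domain. Bmi1 had the lowest signal on mm10 and a break between called mm10 peaks just upstream of its start. Pcgf6 had the strongest signal on mm10. Cbx7 and Kdm2b had a marked start far inside the gene, and the inner one is shown. All are RefSeq sequences on GRCm38.p6 (mm10), 5′ to 3′ on the strand of the gene and ending at the base before the start, or before the 5′ end of the gene for Pcgf6, with each CpG in capitals. The promoter table of RefSeq had entries for 8 of the 10 members.
Phc1 (chr6:122340228-122340477, minus strand): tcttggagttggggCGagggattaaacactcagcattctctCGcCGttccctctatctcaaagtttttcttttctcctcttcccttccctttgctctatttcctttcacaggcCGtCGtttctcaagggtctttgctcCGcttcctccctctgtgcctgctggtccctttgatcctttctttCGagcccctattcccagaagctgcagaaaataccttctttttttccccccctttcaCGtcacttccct
Bmi1 (chr2:18676768-18677017, plus strand): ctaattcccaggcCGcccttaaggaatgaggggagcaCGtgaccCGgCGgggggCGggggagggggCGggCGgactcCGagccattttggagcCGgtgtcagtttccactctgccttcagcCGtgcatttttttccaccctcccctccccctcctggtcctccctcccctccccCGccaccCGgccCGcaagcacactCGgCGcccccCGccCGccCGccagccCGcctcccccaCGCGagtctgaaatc
Pcgf6 (chr19:47050940-47051156, minus strand): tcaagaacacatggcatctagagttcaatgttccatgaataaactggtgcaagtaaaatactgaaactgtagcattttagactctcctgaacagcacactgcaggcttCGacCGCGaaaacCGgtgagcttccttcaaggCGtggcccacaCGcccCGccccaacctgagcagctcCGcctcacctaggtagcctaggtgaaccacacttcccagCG
Cbx7 inner start (chr15:79932647-79932896, minus strand): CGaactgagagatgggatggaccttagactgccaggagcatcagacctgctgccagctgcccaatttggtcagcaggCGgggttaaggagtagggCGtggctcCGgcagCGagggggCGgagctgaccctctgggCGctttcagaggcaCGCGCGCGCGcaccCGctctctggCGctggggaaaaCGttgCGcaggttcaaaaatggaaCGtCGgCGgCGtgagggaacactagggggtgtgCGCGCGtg
Kdm2b inner start (chr5:122900368-122900617, minus strand): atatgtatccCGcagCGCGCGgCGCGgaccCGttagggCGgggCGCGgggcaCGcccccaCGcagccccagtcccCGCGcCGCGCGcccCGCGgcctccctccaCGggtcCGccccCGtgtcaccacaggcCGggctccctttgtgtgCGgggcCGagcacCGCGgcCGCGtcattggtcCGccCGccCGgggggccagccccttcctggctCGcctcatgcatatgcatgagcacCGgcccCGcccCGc
These upstream runs of 250 bases (217 for Pcgf6) held 8 CpG for Phc1, 21 for Bmi1, 9 for Pcgf6, 23 for the inner start of Cbx7 and 36 for that of Kdm2b.

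The authors' replicated mm10 list, derived from the lists of both replicates and of both together, was the main set. It held 62128 peaks, against 86781 in replicate 1 and 83750 in replicate 2, and the read depth behind them is unknown. Each peak has a signal value, the authors' ratio of enrichment over a background that is not described further in the sources used here. A gene counted as marked where a peak reached within 1 kb of the 5′ end of the gene. Its signal is the highest signal value among those peaks. Peaks under 1 kb apart were joined into a domain, and the width given is that of the widest domain at the promoter. Markers of the stem cell state were marked at 7 of 8 genes (median signal 56.7), and the remaining gene, Esrrb, was marked at another start. Of fibroblast or feeder markers, 4 of 8 were marked, with signals from 13.7 to 23.4. Col3a1, Acta2, Postn and Lum had no promoter peak. Primitive endoderm markers were marked at 4 of 6 genes (9.49 to 18.1), trophectoderm markers at 4 of 5 (10.2 to 41.8) and neural markers at 3 of 3 (6.76 to 30.2). The 41.8 is that of Tfap2c, which had 12.3 in replicate 1 and 40.7 in replicate 2, and Gata3 had no promoter peak in replicate 1. Over all protein-coding genes the marked share was 68.4%.

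All 10 PRC1 genes carried a promoter peak in the replicated list, where 68.4% of all protein-coding genes did. In a population of cells, a low signal from a mark carried by few cells and one from little mark in every cell cannot be told apart. The 10 genes carried a promoter peak in each replicate as well. The base at the 5′ end lay inside a peak in all 3 of these lists for every member. The share of all genes with that base in a peak was not computed. When every mm10 start of the RefSeq promoter table was added to the 5′ end, the background was 71.4%. In the mm9 list of the whole series, read at every coding start of GENCODE vM1, it was 71.5%, and again all 10 members were marked. The share among all genes is high, so that being marked sets the members little apart. Their levels spread over a wide range: the median signal of the members was 56.0, against 43.1 for all marked genes, and the median width was 6258 bp, against 2428 bp. By signal, 7 of the 10 were above the median of marked genes, and by width 9 were. In the lists of replicates 1 and 2 the count was 7 and 7 by signal, and 9 and 7 by width. In the replicated list, 6 widths were above the upper quartile of marked genes (3611 bp), and 4 signals were (57.8).

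Signals repeated closely between the replicates, while widths did so less. For 9 members the signals of the replicates were within 10% of each other, the exception being Rnf2. How many of all marked genes were so close was not computed, so this closeness is not particular to the members. Signal values of the replicated list were above those of both replicates at all 10 members, so the values of the replicates, with their mean and SD, are the ones that carry an error here. In the order of mean mm10 signals, Pcgf6 stood first, apart from all others. Pcgf2, Cbx7, Ring1, Rnf2 and Pcgf1 followed, each overlapping with the next in its replicate values. Phc1, Rybp, Kdm2b and Bmi1 came last, in this order, and none of them overlapped with its neighbours. In the order of widths, Phc1 was first and stood apart, Ring1, Pcgf2, Kdm2b and Cbx7 overlapped in sequence, Rybp stood apart below them, and Bmi1, Rnf2, Pcgf6 and Pcgf1 overlapped in sequence at the narrow end.

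**Figure D1:**
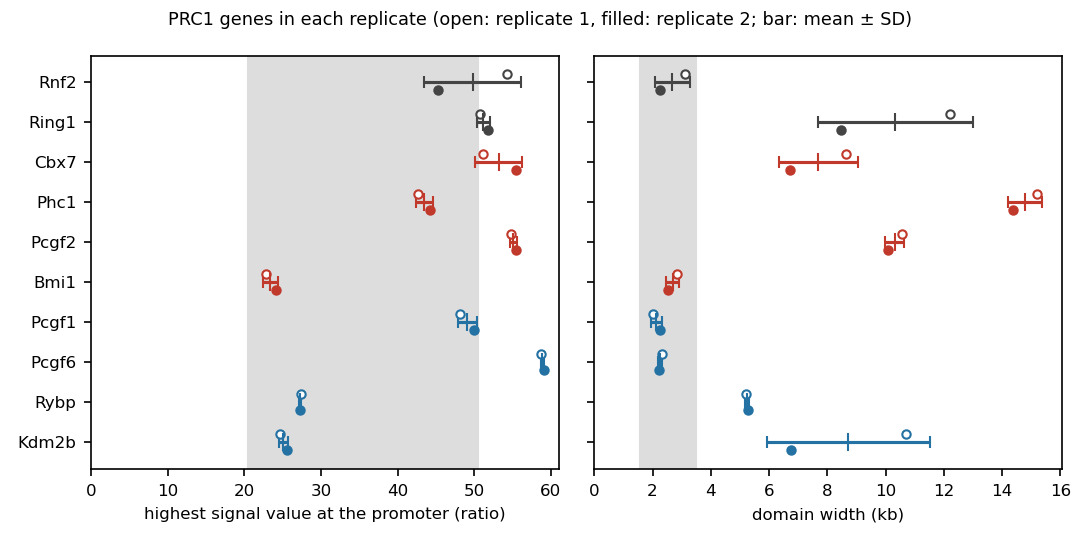
Highest promoter signal (left, ratio) and domain width (right, kb) of the 10 genes in replicate 1 (open points) and replicate 2 (filled points), with the mean and SD as a tick and bar (grey: core, red: canonical, blue: variant); the shaded band runs from the lower to the upper quartile of all marked genes, averaged over both replicates. Pcgf6, Pcgf2, Cbx7 and Ring1 lie at or right of the band by signal, and Phc1, Ring1, Pcgf2, Kdm2b, Cbx7 and Rybp lie beyond it by width.

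On mm10 the catalytic core genes had overlapping signals and unlike widths. Rnf2 (chr1:151469398-151500991, minus strand) encodes the main H2A ubiquitin ligase of embryonic stem cells. Its signal was 54.3 in replicate 1 and 45.3 in replicate 2 (49.8 ± 6.35, SD, n = 2) and 56.4 in the replicated list, at percentile 72.2 of marked genes. Its domain of 3408 bp (3118 and 2248 bp in the replicates, 2683.0 ± 615.2) consisted of a main peak from 546 bp upstream to 1683 bp downstream of the 5′ end and a weak one of signal 2.34 beyond it. The summit, the point of highest enrichment, was 641 bp downstream. It was the member whose signal differed most between the replicates.

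Ring1 (chr17:34020792-34024680, minus strand), the paralogue that can stand in for Rnf2, lies in the gene-dense major histocompatibility region. Its signal was 50.7 and 51.8 (51.2 ± 0.821, n = 2) and 57.9 in the replicated list, at percentile 75.2. The ratio of Ring1 to Rnf2 was 0.932 in replicate 1 and 1.14 in replicate 2, so that the order of the pair turned between the mm10 replicates. In mm9 it was 1.72 in the series list and 1.54 and 1.66 in the replicates, where the region over Ring1 was 12800, 12600 and 12800 bp wide. The domain over Ring1 was 12687 bp wide, at percentile 98.5, from 9598 bp upstream to 3088 bp downstream of the 5′ end. That width does not belong to Ring1 alone. The same domain held the starts of the miRNA gene Mir219a-1 (412 bp upstream), H2-Ke6 (3375 bp), Slc39a7 (7010 bp) and Rxrb (7132 bp, on the other strand). Its strongest peak, of signal 72.0, lay from 8790 to 4565 bp upstream, away from the promoter of Ring1. The peak at Ring1 itself was 4995 bp wide with its summit 54 bp upstream. In replicate 2 a gap between the 2 upstream peaks exceeded the joining distance, and the domain there was 8461 bp, against 12215 bp in replicate 1 (10338.0 ± 2654.5).

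**Figure D2:**
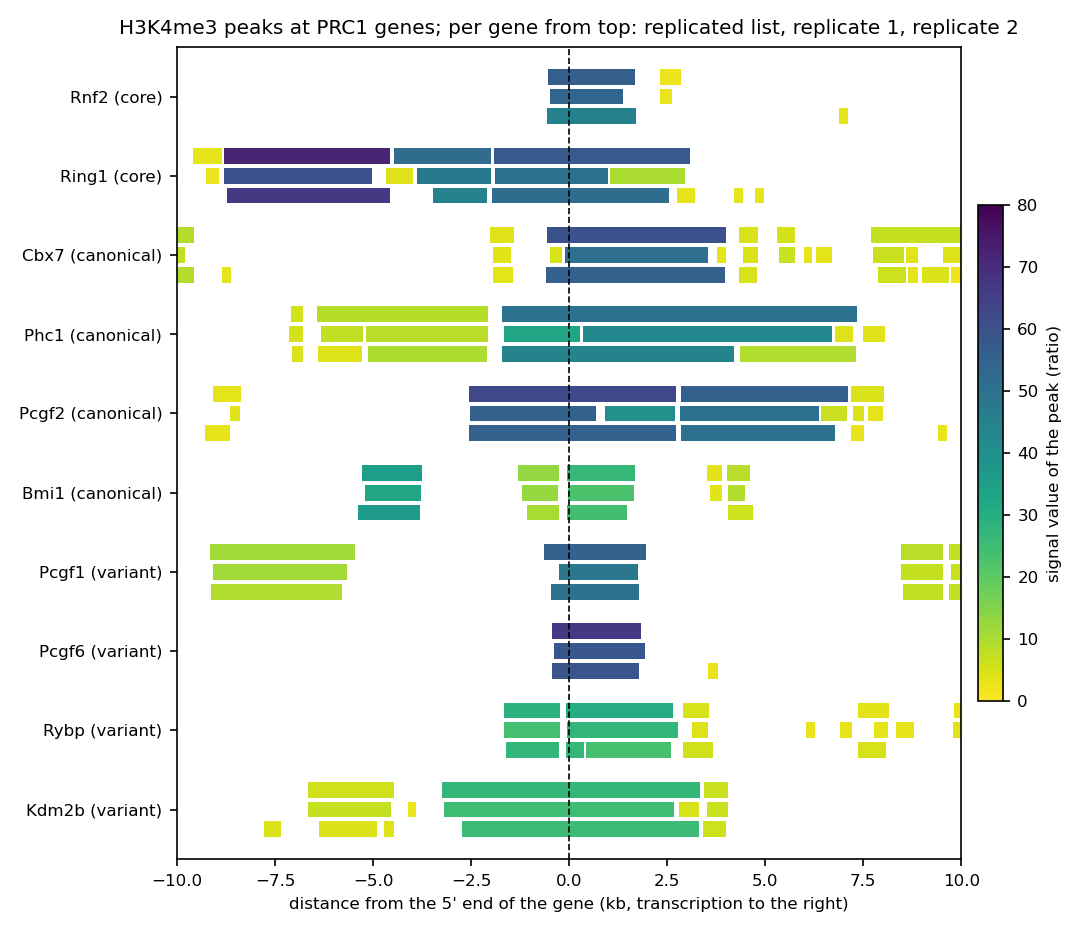
Peaks around the 5′ end of each gene (x axis: distance in kb, transcription to the right, dashed line at the 5′ end), with 3 rows per gene for the replicated list, replicate 1 and replicate 2, coloured by signal value. Wide domains extend on both sides at Ring1, Phc1, Pcgf2 and Kdm2b, Rnf2, Pcgf1 and Pcgf6 have 1 compact main peak at the 5′ end, and Bmi1 and Rybp show a break just upstream of it in all 3 rows.

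The genes of canonical subunits included the widest domain. Phc1 (chr6:122317731-122340227, minus strand) encodes a polyhomeotic protein, whose SAM domain forms polymers. Its signal was 42.7 and 44.2 (43.5 ± 1.06, n = 2) and 49.8 in the replicated list, a moderate percentile of 61.0. Its width of 14418 bp (15198 and 14375 bp, 14786.5 ± 581.9) was at percentile 99.0. The main peak alone, from 1715 bp upstream to 7329 bp downstream, covered 9045 bp and 32.6% of the gene. It was joined to a weaker upstream peak of 4353 bp and signal 9.06. No other gene of known strand in the table starts in this domain. The domain as a whole reached about as far on both sides, from 7088 bp upstream to 7329 bp downstream, while its main peak lay mostly downstream.

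Pcgf2 (chr11:97688821-97702434, minus strand), also called Mel18, encodes the main canonical PCGF protein of embryonic stem cells. Its signal was 54.8 and 55.4 (55.1 ± 0.444, n = 2) and 62.8 in the replicated list, at percentile 83.8. Its width was 10570 bp (10550 and 10076 bp, 10313.0 ± 335.2), at percentile 97.7. The domain had 2 strong peaks. One ran from 2552 bp upstream to 2717 bp downstream with signal 62.8, and the other from 2845 to 7104 bp downstream with signal 56.1. The summit of the first lay 1183 bp upstream of Pcgf2, and 1000 bp upstream is the 5′ end of Psmb3, a proteasome subunit gene on the other strand. Signal at this shared promoter cannot be assigned to either gene. The start that RefSeq lists for Pcgf2 lies 2.79 kb inside the gene, where the base at the start fell in the gap between both peaks in all 3 lists.

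Cbx7 (chr15:79915804-79971143, minus strand) encodes the main H3K27me3-reading CBX protein of self-renewing stem cells. At its 5′ end the signal was 51.1 and 55.4 (53.2 ± 3.09, n = 2) and 60.2 in the replicated list, at percentile 79.4. The width was 7778 bp (8643 and 6735 bp, 7689.0 ± 1349.2), at percentile 95.0, and the summit lay 741 bp downstream. The gene had another strong peak inside it. The start listed by RefSeq, 38.5 kb downstream of the 5′ end and shown in the sequences above, lay in a single peak of 9487 bp (9350 and 9381 bp in the replicates) with signal 41.6. In the replicates that inner signal was 31.8 and 39.9 (35.9 ± 5.71), below the 5′ end in both. In all, 19 peaks touched Cbx7 and covered 54.4% of its 55.3 kb, and all but the 2 strong ones had signals from 2.97 to 7.76. The mark therefore lay along much of the gene at low level, with strong peaks only at its 5′ end and at the inner start.

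Bmi1 (chr2:18677018-18686629, plus strand), the paralogue of Pcgf2 known from stem cells of adult tissues, had the lowest mm10 signal of the 10. It was 22.8 and 24.1 (23.4 ± 0.945, n = 2) and 26.3 in the replicated list, at percentile 27.9. Its width was 2969 bp (2852 and 2540 bp, 2696.0 ± 220.6), at percentile 64.4. A peak of signal 12.9 lay upstream and the stronger one of signal 26.3 started 46 bp upstream, with its summit 198 bp downstream. Between them 201 bp held no peak. The nearest other gene of known strand, Commd3, starts 4583 bp upstream on the same strand. Its own peak of signal 35.8 was not part of the Bmi1 domain. Further peaks inside Bmi1 had signals of 3.47 and 8.48. The ratio of Pcgf2 to Bmi1 was 2.41 in replicate 1 and 2.30 in replicate 2 (2.35 ± 0.076, n = 2), a difference larger than the spread between replicates on mm10. The Pcgf2 value in it is that of the promoter shared with Psmb3, so the ratio cannot be read as one of Pcgf2 alone. In mm9 the same ratio was 1.12 in the series list and 1.13 and 1.06 in the replicates.

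At their mm10 5′ ends, Pcgf1 and Pcgf6 had compact, strong promoters and Rybp and Kdm2b wide, weak ones. In the mm9 series list Pcgf6 was at signal percentile 49.7 and Kdm2b, read at its inner start, at 92.7. Pcgf6 (chr19:47033617-47050939, minus strand), whose protein works with MAX, MGA and E2F6 at germline genes, had the highest mm10 signal of all 10. It was 58.7 and 59.1 (58.9 ± 0.240, n = 2) and 66.6 in the replicated list, at percentile 89.4. The peak was 2257 bp wide (2319 and 2221 bp, 2270.0 ± 69.3), at percentile 44.4, the only width of a member below the median of marked genes in that list. Pcgf1 (chr6:83077552-83080855, plus strand), the partner of KDM2B and BCOR, had signals of 48.2 and 50.0 (49.1 ± 1.27, n = 2) and 55.6 in the replicated list, at percentile 70.8. Its single peak was 2601 bp wide (2000 and 2266 bp, 2133.0 ± 188.1) and covered 59.7% of this gene of 3304 bp. The width of Pcgf1 was at percentile 55.4 in the replicated list, but at 39.8 and 48.5 in the replicates, below the median of each. Pcgf6 exceeded Pcgf1 by a ratio of 1.22 and 1.18 in the mm10 replicates (1.20 ± 0.026). The order turned in mm9, where Pcgf6 had 15.9, 17.7 and 27.6 in the series list and replicates 1 and 2, and Pcgf1 had 25.5, 30.3 and 32.4.

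Rybp (chr6:100228565-100287358, minus strand) encodes the subunit that replaces CBX and stimulates the ligase. Its signal was 27.4 and 27.2 (27.3 ± 0.144, n = 2) and 30.8 in the replicated list, at percentile 33.1. The width of 5226 bp (5206 and 5283 bp, 5244.5 ± 54.4) was at percentile 87.7. A pair of nearly equal peaks lay at the promoter. One of signal 29.0 ran from 1657 to 245 bp upstream. The other, of signal 30.8, ran from 76 bp upstream to 2646 bp downstream and held the 5′ end. Since they were so close in height, the strongest summit lay 166 bp downstream in replicate 1 and 468 bp upstream in replicate 2. No other member had its summit change side between the replicates.

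Kdm2b (chr5:122870664-122989270, minus strand) encodes a histone demethylase with a CXXC domain that recruits variant PRC1 to CpG islands. At its 5′ end the signal was 24.7 and 25.5 (25.1 ± 0.586, n = 2) and 27.0 in the replicated list, at percentile 28.6. The domain was 7290 bp wide, at percentile 94.1, with a main peak of 6583 bp. It was 10712 bp in replicate 1 and 6738 bp in replicate 2 (8725.0 ± 2810.0), since in replicate 1 a weak upstream peak of 210 bp and signal 2.45 bridged to another. The lncRNA gene A930024E05Rik starts 84 bp upstream on the other strand, in the same peak, and signal of the pair cannot be assigned to either. The strongest peak of the gene was inside it. At the inner RefSeq start, 88.9 kb downstream, the signal was 37.9 and 33.7 (35.8 ± 3.01) and 40.5 in the replicated list, in a peak of 2458 bp, so the inner start was above the 5′ end in both replicates. As background, the transcript from the inner start encodes a short protein that keeps the CXXC domain and lacks the demethylase domain. Of 14 peaks touching Kdm2b, which covered 16.3% of its 119 kb, the next in height after those at both starts had signals of 16.7 and 10.5.

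**Figure D3:**
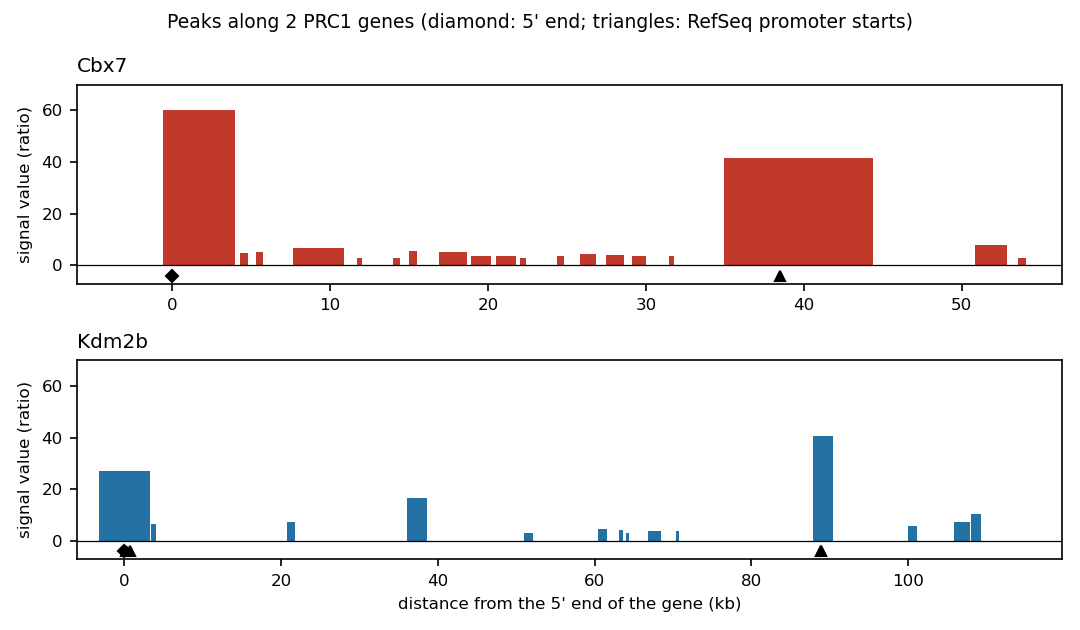
Replicated-list peaks along Cbx7 (top) and Kdm2b (bottom), with the distance from the 5′ end in kb on the x axis, bar width as peak width and bar height as signal value (ratio); a diamond marks the 5′ end and triangles mark RefSeq promoter starts. Cbx7 is stronger at its 5′ end (60.2) than at the inner start (41.6), and Kdm2b is stronger at the inner start (40.5) than at its 5′ end (27.0).

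The mm9 lists gave another call of regions from the same libraries and allowed every annotated start to be read. GENCODE vM1 has 65 starts for the 10 genes, which fall into 37 groups more than 500 bp apart. A region of the series list covered 60 of the 65 starts, 41 of the 44 coding ones and 34 of the 37 groups. The covered share of all vM1 starts was not computed, so these counts do not set the members apart. Kdm2b had 22 starts in 16 groups over 134 kb, of which 19 starts and 14 groups were covered. Its strongest group, 115 kb from the first vM1 start, had signal 29.6 in the series list (33.1 and 33.3 in the replicates), against 10.2 for the group with most coding starts. A group 2.20 kb from that start, which holds its first coding start, lay in no region in any of the 3 lists. Phc1 had all 15 starts under a single region of 17200 bp (14400 and 15200 bp in the replicates) with signal 10.4. Cbx7 had 17.4 at its first group and 15.0 at the inner ones, the order seen on mm10. For Bmi1, 5 of 7 starts were covered. A Pcgf2 group 8.09 kb inside the gene was covered in the series list alone, at signal 3.00.

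Signals of both builds are different ratios and ranked the members differently. Pcgf6 went from percentile 89.4 on mm10 to 49.7 in the mm9 series list, Phc1 from 61.0 to 21.5, and Bmi1 from 27.9 to 59.3. Kdm2b moved most, from 28.6 to 92.7, but there the start changed together with the list, since its mm9 value is that of the inner start. Rybp stayed low, at 33.1 and 18.8, and Ring1 stayed high, at 75.2 and 89.6. Widths ranked the wider members more alike: Phc1, Pcgf2, Ring1, Kdm2b and Cbx7 were at percentile 94.1 or above on mm10 and at 95.4 or above in the mm9 series list. The lowest of these in an mm9 replicate was 94.5, for Cbx7 in replicate 2 at its inner start. Rybp was at 87.7 on mm10 and at 95.6, 87.7 and 81.9 in the mm9 series list and replicates. The narrower members changed order. Pcgf6 rose from width percentile 44.4 on mm10 to 73.4 in the mm9 series list (57.1 and 76.9 in the mm9 replicates). Rnf2 went from 72.1 to 57.0 in the series list, Bmi1 from 64.4 to 49.2 and Pcgf1 from 55.4 to 40.0.

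Set against each other, the canonical genes had wider domains than the variant genes, with overlapping ranges. The median width was 9174 bp for the 4 canonical genes, from 2969 bp at Bmi1 to 14418 bp at Phc1. It was 3913.5 bp for the 4 variant genes, from 2257 bp at Pcgf6 to 7290 bp at Kdm2b, a ratio of 2.34. The canonical median was 9596.5 and 8405.5 bp in replicates 1 and 2, against 3762.5 and 3774.5 bp. It stayed the wider in each of the other settings listed in the closing section, with ratios from 1.78 to 3.19. Of the members, 7 had a domain with no other start among the genes of known strand in the table. Over these alone the median width was 3408 bp, with 7778 bp for the 3 canonical and 2601 bp for the 3 variant genes. Neither the share of all marked genes with such a domain nor the median width of those genes was computed. The 3 members that share their domain, Ring1, Pcgf2 and Kdm2b, thus raise the median of all 10 by more than 1.5 times.

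For signal the order of both classes depended on the list. On mm10 the canonical median was 55.0 and the variant median 43.2. In the mm9 series list it was 17.6 against 20.7, in replicate 1 of mm9 20.7 against 24.0 and in replicate 2 of mm9 20.6 against 30.0. With every mm10 start read, the variant median was 48.1 and the canonical one 55.0, since the inner start of Kdm2b then counted. The 2 core genes had medians of 57.2 for signal and 8047.5 bp for width. Groups of 4 and 2 genes from 1 cell line allow no test of a class, and none was made.

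**Figure D4:**
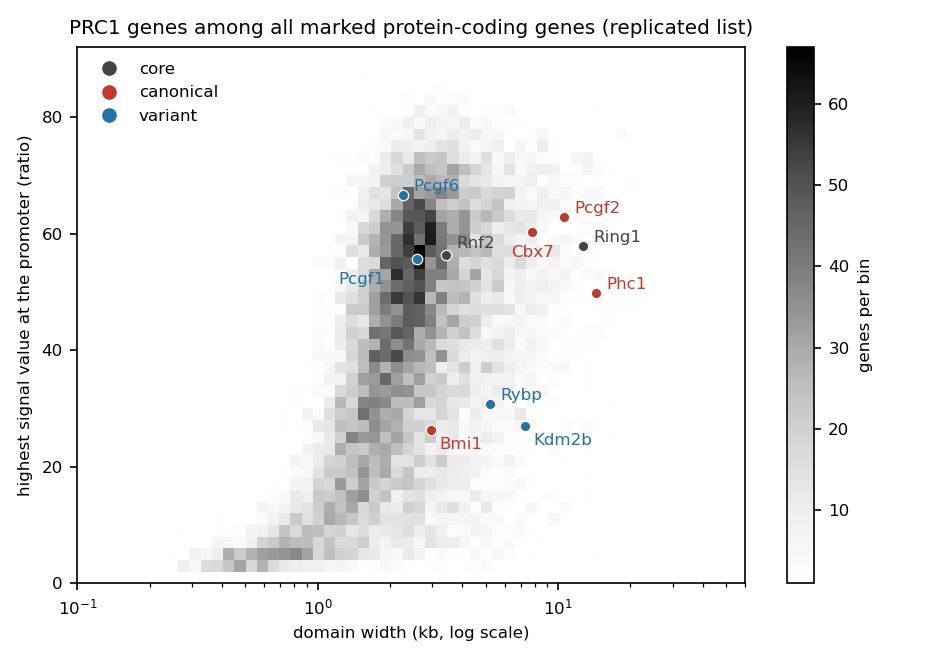
Domain width (x axis, kb, log scale) against highest promoter signal (y axis, ratio) in the replicated list, with all marked protein-coding genes as grey density (genes per bin) and the 10 genes as points (dark grey: core, red: canonical, blue: variant). Pcgf1, Pcgf6 and Rnf2 lie within the dense cloud, Ring1, Pcgf2, Cbx7 and Phc1 lie to its right at 7778 to 14418 bp, and Bmi1, Rybp and Kdm2b lie at signals of 26.3 to 30.8 with widths above the median of 2428 bp.

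The position of the mark relative to the start was that of most marked genes. The strongest summit lay downstream of the 5′ end in 8 of 10 members and in 85.2% of all marked genes. It lay from 168 bp at Rybp to 1168 bp at Kdm2b downstream, and upstream in Ring1 and Pcgf2. Within 5 kb on each side, 9 members had more bases in peaks downstream than upstream, as did 78.9% of all marked genes. The difference was large at Rnf2, with 2231 bp downstream and 546 bp upstream, and at Cbx7, with 4480 and 1168 bp. It was small at Phc1 (5000 and 4638 bp), Kdm2b (3939 and 3792 bp) and Bmi1 (2644 and 2334 bp). Ring1 was the exception, with 3088 and 4826 bp, and has other starts upstream. At Bmi1 and Rybp a break between called peaks lay just upstream of the start, while the base at the 5′ end was inside a peak. The break ran from 247 to 47 bp upstream in Bmi1 (201 bp, and 237 and 185 bp in the replicates) and from 244 to 77 bp upstream in Rybp (168 bp, and 173 and 186 bp). A whole break between peaks within the 500 bp upstream of the 5′ end was found in these 2 members and in 4.91% of all marked genes, a feature chosen after these values were seen. Cbx7 had one of 60 bp in replicate 1 only. No mm9 list had such a break at Bmi1 or Rybp, but mm9 edges fall on a grid of 200 bp. Breaks of about that size may go unseen on it, so the mm9 lists cannot speak to them. In those lists a single region ran on both sides of the first vM1 start, 3200 bp wide at Bmi1 and 7600 bp at Rybp in the series list.

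Bmi1 and Rybp were also the members richest in CpG. In the 2 kb around the first coding vM1 start (mm9), Rybp had 255 CpG and Bmi1 243, both at percentile 99.9 of all genes, whose median was 65.0. Rnf2 had 162 (percentile 95.8), Ring1 134, Pcgf2 133, Pcgf1 123, Phc1 107 and Pcgf6 94. Cbx7 had 49 and Kdm2b 26, both below the median. The start used for Kdm2b is the uncovered one named above, so its value describes a start without the mark. On mm10 Rybp and Bmi1 were among the weakest members by signal (30.8 and 26.3) and Cbx7 among the strongest (60.2), while Rnf2, next in CpG, had 56.4. In the mm9 series list Bmi1 (17.7) and Cbx7 (17.4) were close to each other. Part of the CpG content was in the inner promoters, read in the windows of 300 bases of the promoter table. The inner start of Cbx7 had 33 CpG there and the 2 inner entries of Kdm2b had 47 and 49. The 2 Kdm2b entries near its marked 5′ end had 28 and 18 (percentiles 85.8 and 70.3 of all entries). Phc1 had 9, near the median of 7 over 32851 promoters.

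By the usual classes of promoter CpG content, 7 members were high, Cbx7 and Phc1 intermediate and Kdm2b low. The class of Kdm2b is that of the same uncovered start and not of its marked 5′ end. All 7 high members were marked, in a class where 96.3% of genes were. Of these 7, 5 were above the class median of signal, 51.3, and 5 above its median width, 2763.5 bp. Marked intermediate genes had a median width of 2067.5 bp, below the 7778 bp of Cbx7 and the 14418 bp of Phc1.

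Short motifs were searched on both strands in the promoter windows of the 8 members with an entry, as a description of letters and not of binding. CACGTG, the E-box bound by MAX with MGA, occurs in 7.15% of all promoters and was found at Bmi1 and at the inner start of Pcgf2. GCCATNTT, the YY1 motif, occurs in 6.05% and was found in the same 2. In Bmi1 both lie in the run printed above, 215 and 170 bp upstream of the start, within the stretch that held no peak. TCCCGC, the E2F core, occurs in 20.0% of promoters and was found in Rnf2 and at the inner starts of Pcgf2 and Kdm2b. CCAAT, bound by NF-Y, occurs in 37.4% and was found at the inner starts of Cbx7 and Kdm2b. Kdm2b was searched in 4 windows, while each share is per window. CCGGAAG (ETS) and GCGCATGC (NRF1), in 8.86% and 2.71% of promoters, were in none of the windows.

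Within each family of subunits, the members were set beside paralogues, which were named with their values known. These orders are those of mm10 at the 5′ ends. With every mm10 start read, the replicated-list signal of Pcgf5 went from 36.4 to 41.3 and that of Phc2 from 36.4 to 40.4. The orders of that list stayed the same. In the PCGF family the replicated-list signals were 66.6 for Pcgf6, 62.8 for Pcgf2, 55.9 for Pcgf3, 55.6 for Pcgf1, 36.4 for Pcgf5 and 26.3 for Bmi1. The value of Pcgf2 is that of the promoter it shares with Psmb3. Pcgf1 and Pcgf3 differed by less than the spread of either (ratio 0.994 ± 0.0054). Among CBX genes, Cbx7 at its 5′ end was below Cbx2 in both replicates (ratio 0.903 and 0.943) and above Cbx8 by a ratio of 1.57 ± 0.11 and Cbx6 by 1.21 ± 0.100. Phc1 was above Phc2 by a ratio of 1.36 ± 0.11 and below Phc3 by one of 0.681 ± 0.0024. Rybp and Yaf2 changed order between the replicates (0.974 and 1.21). Width set some of these genes apart in another way: Phc3 had a domain of 1837 bp and Cbx2 one of 2147 bp, against 14418 bp for Phc1 and 7778 bp for Cbx7.

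**Figure D5:**
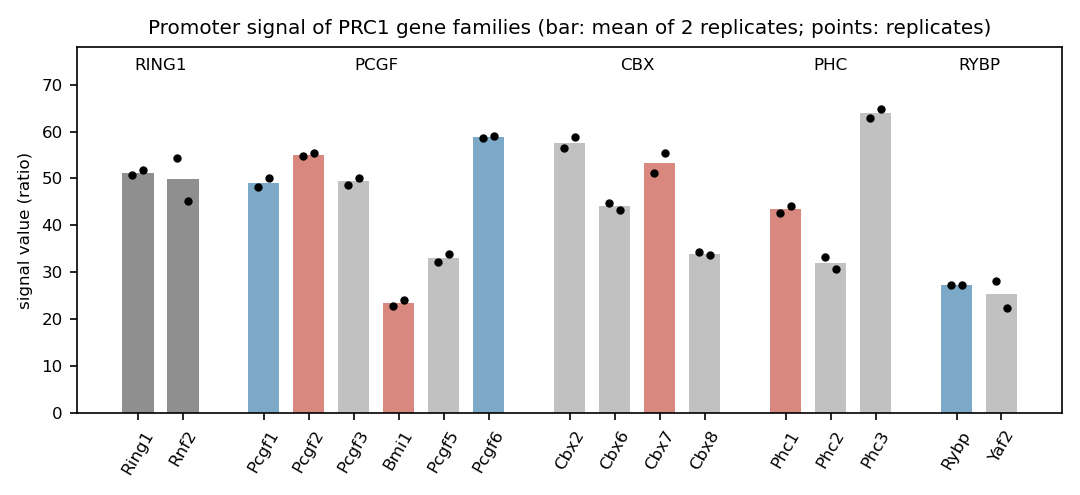
Promoter signal in the mm10 replicates (y axis, ratio) of genes from 5 PRC1 gene families, as the mean of both replicates (bar) with each replicate as a point (dark grey: core members, red: canonical, blue: variant, light grey: paralogues outside the 10 genes). On mm10, Bmi1 is lowest of the PCGF genes and Pcgf6 highest (in the mm9 series list Pcgf6, at 15.9, is below Bmi1, at 17.7), and Phc3 exceeds Phc1 in both replicates.

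The wider complex holds 31 further genes of subunits and partners in the table. Of these, 30 (96.8%) had a promoter peak at the 5′ end, beside 68.4% of all protein-coding genes and 96.3% of those of high CpG content. Among the 30, the median signal was 53.1 and the median domain 3198.5 bp wide. The highest signals were those of Max (75.2), which binds the E-box with MGA, Fbrs (73.2) and Dcaf7 (72.6). The lowest were those of Usp7 (4.10), a deubiquitinase, Bcor (10.4), a subunit of the PCGF1 complex, and Mga (20.6). At other RefSeq starts Usp7 had 54.9 and Mga 26.6, the latter above the 22.6 of Bcorl1. Their low values thus belong to the 5′ ends used. Scml2 had no peak at its 5′ end and 15.0 at another start. Scml2, Bcor and Bcorl1 (22.6) are on the X chromosome, of which male cells hold a single copy. The widest domains were at Fbrsl1 (18.7 kb) and Cbx3 (8.22 kb), and of these only that of Fbrsl1 was wider than the domain of Phc1.

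PRC2 writes the H3K27me3 mark that canonical PRC1 reads. All 12 of its core and accessory genes listed here were marked, beside the same 68.4% of all and 96.3% of high-CpG genes. The median signal was 53.6 and the median width 4374.5 bp, beside 56.0 and 6258 bp for the PRC1 genes. In the replicated list Rbbp4 (69.9), Mtf2 (68.7) and Suz12 (68.6) were highest. Phf1 (25.0), Phf19 (28.2) and Rbbp7 (36.2), the last on the X chromosome, were lowest in it. The place of Mtf2 was not kept in the replicates. It had 57.8 in replicate 1 and 47.6 in replicate 2, below Eed in both and below Jarid2 in replicate 2. Mtf2 (20.9 kb), Jarid2 (12.1 kb) and Epop (8.71 kb) had the widest domains, and these 3 encode accessory subunits. The largest PRC2 width, at Mtf2, exceeded that of Phc1, and the lowest PRC2 signal, at Phf1, was close to those of Bmi1 and Kdm2b.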

How the data were processed

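H3K4me3 ChIP-seq peak lists of 2 biological replicates of E14TG2a.4 cells, 1 group, were used. The authors deposited 4 lists on mm10 (each replicate, both together, replicated) and 3 on mm9 (each replicate, the series). Their signal value is a ratio of enrichment made by the authors. The deposited mm10 lists also hold the −log10 of q-values and a summit, and the deposited mm9 lists hold p-values and q-values as such. All mm9 edges fell on a grid of 200 bp. How reads were aligned, which caller and control served and with which parameters were not given in the sources used here. No read counts were used, so depth is unknown. Nothing in the labels says whether the replicates were separate cultures beyond calling them biological, so an SD may hold technical spread only. A signal value depends on the caller and on depth, and a place under a list's threshold is unrecorded.

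Genes came from the GRCm38.p6 gene table. Strand was taken from GENCODE vM1 by name (18392 genes) or synonym (2191), and 1304 of 21887 genes without strand were left out. It matched the RefSeq promoter table for 16489 of 16539 genes present in both. No coordinate was moved between builds. CpG classes were read in mm9 windows of 500 bp, between 1300 bp before and 200 bp after the start: high where a window had an observed-to-expected ratio over 0.75 with GC over 55 percent, low where none passed 0.48. Overlap and joining recovered 500 of 500 simulated domains. The work used Python 3.11.15, numpy 2.4.6 and matplotlib 3.10.9.

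No test was made, since there is 1 group. Percentiles are among marked genes. All 10 members are named, the 3 genes of highest and lowest signal and of widest domain in the wider PRC1 and PRC2 lists, those without a peak, and genes starting within 5 kb of a member. A gene that this rule takes is not reported here. Slc39a7, Rxrb, Bcorl1 and paralogues were named after their values were seen. The members and lists were chosen with earlier results of these data known. Alternatives were each replicate's list, the pooled list, windows of 500 bp or 2 kb around the 5′ end, q-values below 1e-05, no joining, joining within 3 kb, the mm9 lists and every RefSeq start.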

Additional observations from a re-analysis of the deposited data

How the results depend on the processing

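All 10 members were marked under each alternative run. The other values moved with the list and the joining rule. With 1 replicate left out in turn, the median signal of the members was 47.7 to 49.4 and the median width 6009 to 6924.5 bp. The canonical signal was then 46.9 to 49.8 and the width 8405.5 to 9596.5 bp, and the variant signal was 37.8 to 38.6 and the width 3762.5 to 3774.5 bp. Without joining of peaks, the median widths of all, canonical and variant members were 3640, 4913.5 and 2662 bp. With joining within 3 kb, the median of all was 10235 bp and the canonical one 12494 bp. In the pooled mm10 list the median of all was 6954.5 bp. In mm9 (series list, replicate 1, replicate 2) the median signals were 17.6, 21.3 and 21.6 for all, 17.6, 20.7 and 20.6 for canonical and 20.7, 24.0 and 30.0 for variant genes. The mm9 median widths were 12900, 8800 and 7700 bp for all, 16000, 11900 and 10500 bp for canonical and 9000, 4900 and 5200 bp for variant genes. With every mm10 start, chosen after seeing the data, the canonical width was 10028.5 bp and the variant signal 48.1. The strongest summit of Rybp lay at -468 bp in replicate 2 and at 166 bp in replicate 1. Every member kept its signal in the pooled mm10 list, with the q-value limit and in both other windows. These settings therefore add little to the count of signals that follows. With every mm10 start the signal of Kdm2b went from 27.0 to 40.5. Among single members, 0 of 70 signals on mm10 moved by over 1.5 times, with that of Kdm2b at this limit, and 12 of 90 widths did. By the stricter limit of the SD of both replicates, and with mm9 included, 50 of 100 signals and 44 of 120 widths moved. The causes were not tested. No paired analysis was possible because the samples form 1 group. Widths can depend on the caller's threshold and on read depth, neither of which is known here, and 2 replicates give a coarse SD.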
